A study of Mus musculus with 22 samples.

Results

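The genes described here are 40 genes of cell attachment to the extracellular matrix, 23 of them integrin subunits (15 alpha and 8 beta) and 17 of them cytoplasmic proteins of focal adhesions. They are a list of gene names with no threshold on measured values, drawn up with earlier results of these data known, and all 40 were found among the 29367 genes of the count table. Integrins are receptors made of an alpha and a beta subunit that bind matrix proteins outside the cell and are switched on from inside by talin and kindlin. Bound integrins gather in focal adhesions, where vinculin, alpha-actinin and filamin tie them to actin, and where focal adhesion kinase, Src, paxillin and p130Cas pass on signals. In the optic nerve, astrocyte processes rest on laminin-rich basement membranes at blood vessels and at the pial surface, where integrins are among their matrix receptors.

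RNA-seq was run on mRNA immunoprecipitated with HA-tagged ribosomes, which reports messages held by ribosomes rather than total RNA. Every group came from mice aged 3 to 4 months that were homozygous for the ribotag allele (Rpl22 HA/HA, from strain B6J.129(Cg)-Rpl22tm1.1Psam/SjJ) and carried the GFAP-Cre transgene 73.12Mvs, on a C57Bl/6 background, with the genotype labelled WT. All of them had received microbeads in the eye, which obstruct outflow and raise intraocular pressure. The 4 groups were the optic nerve head (ONH, the unmyelinated stretch) and the proximal part of the optic nerve proper (ONP, the myelinated nerve behind it), each taken 7 or 30 days after injection, with 4 libraries per region at 7 days and 7 at 30 days. Each library pooled tissue of 4 mice, 2 male and 2 female. Each ONH pool and its ONP pool came from the same mice, but the sources used here do not say that a shared replicate number marks them, so libraries were not treated as pairs. The libraries at 7 days are named here by the number in the column header. Cre was constitutive and driven by a mouse GFAP promoter, so ribosomes are tagged in any cell that has used that promoter, and uninjured mice were not analysed here. Since every p-value rests on pools, it measures the spread between pools and not between single mice.

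Total counts per library ranged from 16292489 to 33307092. All 10 astrocyte markers examined (such as Gfap, Aqp4 and Aldh1l1) were detected in each group, and their summed level lay between 13965 and 33911 CPM (read counts relative to the library's total, scaled by TMM over all 22 libraries). Markers of other cells were present as well. The sum of 9 oligodendrocyte markers ranged from 13759 to 40829 CPM in the ONH, from 81770 to 109872 CPM in the ONP at 7 days and from 26058 to 85109 CPM in the ONP at 30 days. The sum of 12 microglial or macrophage markers was highest in 3 libraries of 30 days, with 6248 CPM in ONP replicate 7, 4953 CPM in ONH replicate 7 and 4707 CPM in ONP replicate 5, against 275 to 3274 CPM in the other 19. In bulk samples of this kind, fewer cells of a type and less RNA per cell cannot be told apart. Each comparison that uses these 3 libraries was also fitted without them, and results that changed are given both ways.

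The expression levels of the members were compared on a per-length scale, as CPM per kilobase of exon. Ilk, the pseudokinase scaffold that joins integrins to parvin and PINCH, had a mean of 55.1 CPM per kb over the 22 libraries, and Itgb1, the beta subunit shared by most matrix-binding integrins, had 53.6 CPM per kb with a range of 33.9 to 77.1. Their order changed with the group. Ilk led in the ONH at 7 days and the ONP at 30 days (63.2 and 57.4 CPM per kb against 60.6 and 42.9), and Itgb1 led in the ONH at 30 days and the ONP at 7 days (52.8 and 66.8 against 46.0 and 59.1). Actn4, an actin-bundling alpha-actinin, came next with 28.6 CPM per kb. Itgb5, a partner of the alpha V subunit, had 24.7 CPM per kb but ranged from 6.37 to 92.1. Bcar1 (p130Cas, a docking protein of adhesions) had 22.6, Fermt2 (kindlin-2) 22.4, Lims1 (PINCH-1) 22 and Itgb4, the partner of alpha 6 in laminin binding, 16.9 CPM per kb. The ranges of neighbours in this order overlapped throughout, so no step between adjacent genes exceeded the spread between libraries.

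Among alpha subunits, the mean over all libraries was 5.12 CPM per kb for Itgav, 4.57 for Itga6, a laminin receptor subunit, and 4.34 for the alpha M subunit Itgam of myeloid cells. Itgav led only in the ONH at 30 days (6.35 CPM per kb). The highest group mean was that of Itga3 in the ONH at 7 days (4.45 against 4.09 for Itgav), of Itgam in the ONP at 7 days (9.17 against 4.03) and of Itga6 in the ONP at 30 days (5.17 against 5.10). Itga3, another laminin receptor subunit, had 2.88 and Itga5, the fibronectin receptor subunit, 2.10 CPM per kb. The other 10 alpha subunits had at most 1.2 CPM per kb. The lowest member was Itgb6, an epithelial integrin subunit, which exceeded 3 counts in 6 of 22 libraries. It was listed at 0 in all 7 ONP libraries at 30 days, which allows a level of up to 0.122 to 0.169 CPM per library (the level of 3 counts, for counting error only). Between the highest and the lowest library, Itgb2 (the common beta chain of leukocyte integrins) varied 48.7-fold, Itgam 27.6-fold and Itgb5 14.5-fold, while Lims1 varied 1.63-fold and Itgb8, a subunit that activates TGF-beta, 2.20-fold.

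**Figure D1:**
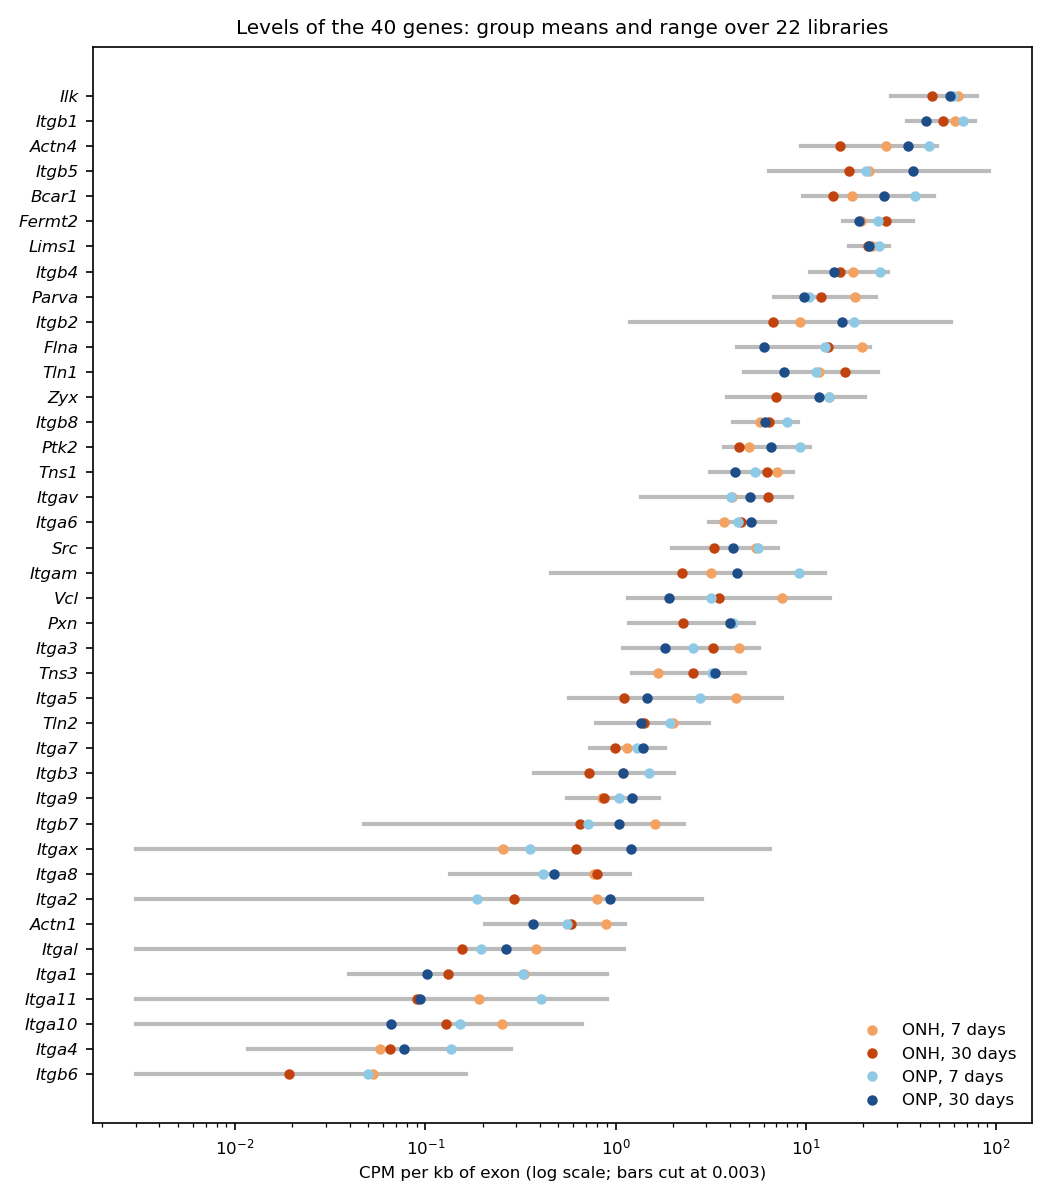
Level of each of the 40 genes in CPM per kb of exon on a log axis, ordered by the mean over 22 libraries. Dots are the means of the 4 groups (a mean of 0, as for Itgb6 in the ONP at 30 days, is not drawn) and grey bars run from the lowest to the highest library. Ilk and Itgb1 are highest, and the bars of Itgb2, Itgam and Itgax are far longer than that of Lims1.

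The sequences before the transcription start are shown for 4 members that were called in a comparison and whose windows hold a motif marked here. Vcl, Flna and Itgb1 fell in the ONP, and Vcl, Flna and Fermt2 were higher in the ONH in the comparisons that follow. They were picked for these matches. Called members whose windows hold neither motif, such as Tln1, Bcar1, Itga1, Itga3, Itga8 and Tns1, are not shown, nor is Actn4, which holds GGAATG. The 250 bases upstream of the RefSeq start (GRCm38.p6, gene strand, 5' to 3') carry in capitals each CArG box, the element bound by serum response factor, and each GGAATG or its reverse complement, the core bound by TEAD factors. The windows are chr14:20929148-20929397 on the plus strand for Vcl, chr14:45530066-45530315 on the minus strand for Fermt2, chrX:74246535-74246784 on the minus strand for Flna (a start inside the longer gene model of the count annotation) and chr8:128685404-128685653 on the plus strand for Itgb1.
Vcl: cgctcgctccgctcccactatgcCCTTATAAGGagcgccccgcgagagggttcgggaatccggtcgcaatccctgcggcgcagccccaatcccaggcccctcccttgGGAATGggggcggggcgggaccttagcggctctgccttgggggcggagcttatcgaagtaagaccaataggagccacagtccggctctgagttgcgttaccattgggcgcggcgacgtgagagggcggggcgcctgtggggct
Fermt2: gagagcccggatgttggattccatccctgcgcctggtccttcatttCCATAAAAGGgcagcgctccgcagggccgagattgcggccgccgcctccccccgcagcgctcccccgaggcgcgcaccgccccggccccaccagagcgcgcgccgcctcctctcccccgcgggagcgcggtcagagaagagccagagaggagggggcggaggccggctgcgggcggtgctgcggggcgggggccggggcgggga
Flna: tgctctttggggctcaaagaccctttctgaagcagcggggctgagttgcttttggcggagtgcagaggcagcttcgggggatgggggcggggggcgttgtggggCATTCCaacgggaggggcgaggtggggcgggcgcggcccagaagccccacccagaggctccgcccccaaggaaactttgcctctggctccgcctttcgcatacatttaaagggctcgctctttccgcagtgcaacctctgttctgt
Itgb1: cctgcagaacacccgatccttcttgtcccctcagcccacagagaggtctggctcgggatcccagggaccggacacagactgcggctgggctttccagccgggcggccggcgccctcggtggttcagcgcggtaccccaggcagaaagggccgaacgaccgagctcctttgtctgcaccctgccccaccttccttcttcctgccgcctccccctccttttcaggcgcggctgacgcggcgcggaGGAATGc
A window was found for 30 of the 40 members. On either strand, the CArG box occurred in 3 of these, 227 bases before the start in Vcl, 204 in Fermt2 and 50 in an alternative start of Itgb6, against 1.62% of 27025 genes. GGAATG occurred in 5 (Actn4, Flna, Itga10, Itgb1 and Vcl), against 14.4% of genes. The AP-1 letters TGANTCA occurred in 3 (Actn4, Itgax and Zyx), against 7.82%, and the GC box GGGCGG in 18, against 35.4%. GGAATG and the CArG box overlap in none of the 4 windows shown. These matches describe letters in the windows and not binding.

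The comparison of 30 with 7 days in the ONP asked how astrocyte adhesion genes stood after the period of raised pressure in the myelinated nerve. Of 38 members tested, 8 fell and none rose, which are 21.1% of the members against 17% of the 15491 genes tested that passed in either direction and 9.21% that passed as lower. The members that fell were the subunits Itgb1, Itgb4 and Itga1, the linkers Tln1, Vcl and Flna, and the signalling proteins Ptk2 and Bcar1. The median log2FC over the 38 members was -0.39, against -0.01 over all genes tested, and 27 of the 38 lay below 0. With scaling by library size alone, the median of all genes moved by 0.11 and the share of calls that were higher went from 45.9% to 66.7%, while 6 members were called, all lower.

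Itgb1 (chr8:128685654-128733200 on the plus strand, GRCm38) stood at 238, 290, 267 and 295 CPM in the ONP at 7 days and at 153 to 207 CPM (median 169) at 30 days. All 7 later libraries lay below all 4 earlier ones, and log2FC was -0.67 ± 0.10 (SE, n = 7 and 4; edgeR adjusted p = 0.00165). Itgb4 stood at 161, 176, 161 and 189 CPM at 7 days and at 82 to 163 CPM (median 86.9) at 30 days. The groups overlapped only through replicate 5 at 30 days, the library with 163 CPM, and log2FC was -0.83 ± 0.17 (edgeR adjusted p = 0.00781). Without that library, it was -0.97 ± 0.08 (edgeR adjusted p = 0.00018). Itga1, a collagen receptor subunit, was low throughout, with 1.10, 5.75, 6.58 and 10.7 CPM at 7 days and 0.738 to 2.84 CPM (median 1.90) at 30 days. Its log2FC was -1.70 ± 0.48 (edgeR adjusted p = 0.0301), and library 1 of 7 days lay inside the range of the later group. The call for Itga1 was lost when any of ONP replicates 1 or 3 of 30 days or libraries 2, 5 or 6 of 7 days was left out, with adjusted p of 0.055, 0.0545, 0.0597, 0.0616 and 0.136 by edgeR. It was also lost with limma-voom (adjusted p = 0.0503), limma on the deposited log2 values (0.0718) and all 4 groups in 1 edgeR fit (0.0824).

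Flna, a filamin that crosslinks actin and binds beta integrin tails, stood at 203, 65.6, 98.9 and 104 CPM in the ONP at 7 days and at 40.9 to 68.1 CPM (median 60.5) at 30 days. Library 1 was well above the others, and library 2 lay inside the later range. Its log2FC was -1.10 ± 0.24 (edgeR adjusted p = 0.0111), and without library 1 of 7 days it was -0.66 ± 0.17 (edgeR adjusted p = 0.0291). Vcl, which reinforces the link of talin to actin under load, stood at 32.3, 23.2, 21.2 and 27.8 CPM at 7 days and at 9.51 to 20.7 CPM (median 14.9) at 30 days. The groups did not overlap, with log2FC of -0.78 ± 0.21 (edgeR adjusted p = 0.0273), but the adjusted p was 0.0955 without library 1 and 0.0818 without library 6 of 7 days, 0.0558 with scaling by library size and 0.189 with all 4 groups in 1 fit. Tln1, the talin that binds integrin tails, stood at 108, 112, 105 and 120 CPM at 7 days and at 46.5 to 107 CPM (median 77.1) at 30 days. Replicate 7 of 30 days alone reached the earlier range, and log2FC was -0.60 ± 0.18 (edgeR adjusted p = 0.042). The Tln1 call was lost on leaving out replicates 1, 2, 4 or 6 of 30 days or any library of 7 days, with edgeR adjusted p of 0.0503 to 0.125. It was also lost with limma on the deposited log2 values (adjusted p = 0.0522) and in edgeR with RLE factors (0.0503), library size (0.074), no filter (0.07) or all 4 groups in 1 fit (0.12).

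Ptk2, which encodes focal adhesion kinase, stood at 90.2, 124, 106 and 120 CPM in the ONP at 7 days and at 67.9 to 93.9 CPM (median 73.6) at 30 days. Only replicate 5 of 30 days reached into the earlier range, and log2FC was -0.55 ± 0.11 (edgeR adjusted p = 0.00782). Bcar1, a substrate of that kinase, stood at 153, 154, 159 and 214 CPM at 7 days and at 96.4 to 145 CPM (median 117) at 30 days. Its groups did not overlap and log2FC was -0.57 ± 0.13 (edgeR adjusted p = 0.0108, but 0.0507 with all 4 groups in 1 fit). The 3 members whose groups did not overlap, Itgb1, Vcl and Bcar1, compare with 12.1% of all genes tested.

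The other 30 members tested in the ONP did not pass. Among them Itga11 had log2FC of -2.13 ± 0.71 (edgeR adjusted p = 0.0567) at 0.0812 to 4.64 CPM, Fermt2 had -0.37 ± 0.12 (edgeR adjusted p = 0.0577), Tns1 had -0.39 ± 0.13 (edgeR adjusted p = 0.0613) and Itga3 had -0.51 ± 0.18 (edgeR adjusted p = 0.0731). Itga11 passed without replicate 4 of 30 days or without libraries 1 or 5 of 7 days (edgeR adjusted p = 0.0399, 0.0431 and 0.0347), Fermt2 without replicates 2 or 3 (0.038 and 0.0486), and Tns1 without replicate 4 (0.0464). Tln2, a second talin gene, passed without replicate 5 of 30 days (log2FC -0.77, edgeR adjusted p = 0.0424) and Itga5 without replicate 7 (-1.29, edgeR adjusted p = 0.0162). Other methods added calls as well. DESeq2 called Itga11 (adjusted p = 0.0249), and limma-voom called Itga3 (adjusted p = 0.0436), Itga5 (0.0132), Fermt2 (0.0357) and Itgam (0.0111), all lower. Of the ILK complex, which couples beta integrin tails to actin, Ilk had log2FC of -0.08 ± 0.09, Parva -0.12 ± 0.16 and Lims1 -0.21 ± 0.08. For Lims1 an interval of 2 SE ran from -0.37 to -0.04. Src and Pxn had log2FC of -0.47 ± 0.23 and -0.10 ± 0.15. The highest positive values were those of Itga2 (2.30 ± 1.08), Itgax (1.72 ± 1.46) and Itgb5 (0.79 ± 0.70), each with groups that overlapped. Without the ONP libraries high in microglial markers, Itga2 stayed at 2.23, while Itgax turned to -0.90 and Itgb5 to -0.30 (edgeR adjusted p = 0.602 and 0.687). Itgax also turned without replicate 7 alone (-0.0885).

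Markers of other cells moved in the same comparison. Of 9 oligodendrocyte markers 8 fell, with a median log2FC of -0.86, and of 9 endothelial markers tested 6 fell, with a median of -1.90. The endothelial sum was 129 to 157 CPM in the ONP at 7 days and 12.6 to 103 CPM at 30 days. None of the 12 microglial markers passed. Of 7 surface epithelium markers tested 1 fell (median log2FC -2.78), of 8 mural 2 (-0.27) and of 5 pigment cell 2 (-0.50). Of 5 photoreceptor markers 1 fell (-2.26), and of 6 oligodendrocyte precursor markers 1 (0.08). Of 8 neuron markers 2 fell and 1 rose (-0.43), and none of 8 fibroblast (-0.46) or 5 other leukocyte markers (1.61) passed. The astrocyte sum ran from 15620 to 21859 CPM at 7 days and from 15289 to 33911 CPM at 30 days, and 1 of 10 astrocyte markers passed, as higher. The part of these marker changes in the result was not tested. ONP replicate 5 of 30 days had the highest oligodendrocyte sum of that group (85109 CPM) and the highest endothelial sum (103 CPM). In it 9 members were at their highest of the 7, Itgb4, Ptk2, Bcar1 and Zyx among them. Replicates 7 and 2 were highest for 8 and 7 members. When the 3 libraries high in microglial markers were left out, 13 of 38 members fell and none rose, with 24.3% of all genes called. The 8 named above were all among them, joined by Itga5 (log2FC -1.50), Itgam (-2.66), Itgb2 (-2.26), Tln2 (-0.85) and Zyx (-0.48). Itgam and Itgb2 are integrins of the cells whose markers chose the libraries left out. Those libraries were all of 30 days, so the falls of Itgam and Itgb2 are not independent of that choice.

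**Figure D2:**
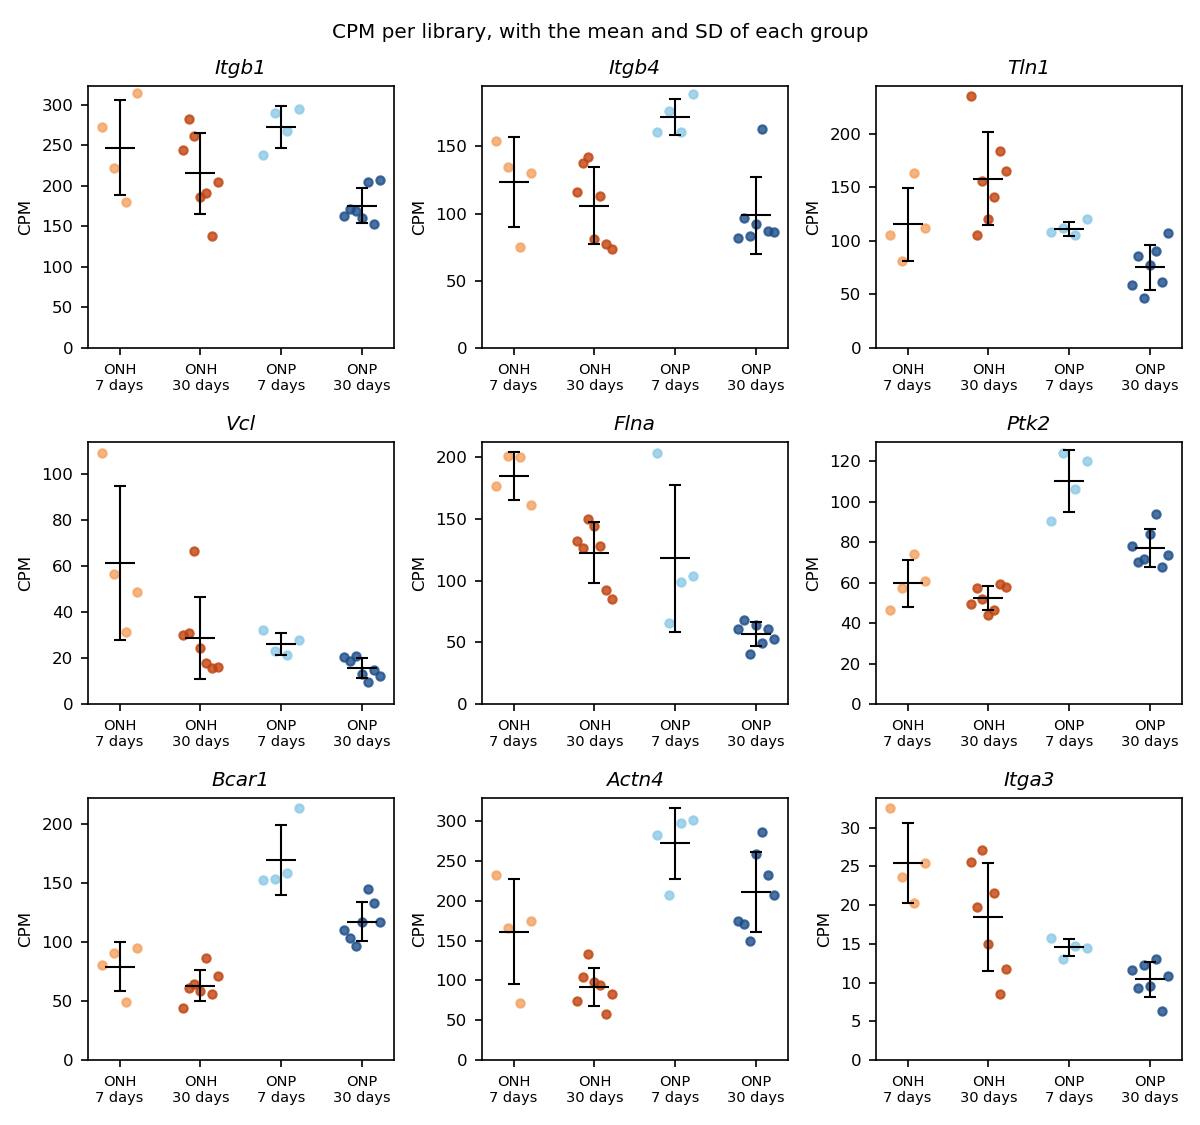
CPM of 9 members in each of the 22 libraries, by region and day. Points are libraries, the horizontal mark is the group mean and the bar is the SD. Itgb1 and Bcar1 in the ONP were lower in all 7 libraries at 30 days (153 to 207 and 96.4 to 145 CPM) than in the 4 libraries at 7 days (238 to 295 and 153 to 214 CPM).

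In the ONH, the same comparison of 30 with 7 days called no member. Of 39 tested, 0 passed, and 0% of 15668 genes passed with edgeR. At an unadjusted p under 0.05 there were 9 members and 2179 genes (13.9%). DESeq2 called 3 members, Flna (log2FC -0.60, adjusted p = 0.0471) and Itga5 (-1.95, adjusted p = 0.0106) as lower and Tns3 (0.60, adjusted p = 0.0439) as higher, among 448 genes. The median log2FC was -0.46 over the 39 members and -0.02 over all genes, with 29 members below 0. Without ONH replicate 7, high in microglial markers, edgeR again called 0 of 38 members and 0 of 15646 genes.

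Markers of several but not all other cell types lay lower at 30 days in the ONH as well, with 0 called by edgeR. The median log2FC was -1.98 over 9 endothelial markers, -1.04 over 9 mural markers, -1.48 over 8 fibroblast markers and -4.05 over 6 surface epithelium markers, against 0.10 over 10 astrocyte markers. For 9 neuron, 8 pigment cell and 6 photoreceptor markers it was -0.60, -0.79 and -1.77. It was 0.003 over 9 oligodendrocyte, -0.002 over 6 oligodendrocyte precursor, 0.09 over 12 microglial and -0.04 over 6 other leukocyte markers. The endothelial sum was 45.6 to 395 CPM (median 236) at 7 days and 29.7 to 121 CPM (median 59.7) at 30 days, and the fibroblast sum was 678 to 1888 CPM and 439 to 937 CPM. The part of these cells in the members' values was not tested.

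Flna was the member whose ONH groups did not overlap, against 2.25% of all genes. It stood at 177, 201, 200 and 161 CPM at 7 days and at 85.0 to 150 CPM (median 128) at 30 days, with log2FC of -0.59 ± 0.17 (edgeR adjusted p = 0.189). Itga5 stood at 28.4, 15.1, 4.00 and 36.9 CPM at 7 days and at 2.81 to 8.92 CPM (median 4.23) at 30 days. Library 5 of 7 days, with 4.00 CPM, lay within the later range while the others lay above it, and log2FC was -1.94 ± 0.47 (edgeR adjusted p = 0.185). Without that library, 3 members passed as lower by edgeR: Itga5 (log2FC -2.28, adjusted p = 0.0367), Zyx (-1.21, adjusted p = 0.0472) and Actn4 (-1.03, adjusted p = 0.0472), among 167 genes (1.04%). Library 5 was the lowest of its group for the subunits Itga3, Itga5, Itga7, Itga8, Itga9, Itgal, Itgb1, Itgb4 and Itgb8. It was also the lowest for Vcl, Pxn, Ilk, Parva, Zyx, Actn4, Bcar1 and Tns3, and the highest for Itgb3, Itgb6, Tln1, Ptk2 and Fermt2.

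Whether the 30 vs 7 day change differed between regions was tested as an interaction. Of 40 members, 0 passed, against 0.543% of 16748 genes with edgeR, and 6 members had an unadjusted p under 0.05 (12.6% of all genes). DESeq2 called 0 members of 409 genes. The smallest adjusted p belonged to Tln1, where the ONP change lay 1.05 ± 0.32 below the ONH change on the log2 scale (edgeR adjusted p = 0.14). In the ONH, Tln1 stood at 105, 81.2, 163 and 112 CPM at 7 days and at 105 to 235 CPM (median 156) at 30 days, while it was lower at 30 days in the ONP as given above. For Fermt2 the difference was -0.81 ± 0.26 (edgeR adjusted p = 0.173). Without ONH library 5 of 7 days both passed, with log2 differences of -1.29 (edgeR adjusted p = 0.036) for Tln1 and -1.07 (edgeR adjusted p = 0.0245) for Fermt2. The falls of Itgb1 and Itgb4 in the ONP were not shown to differ from the ONH values, with differences of -0.48 ± 0.22 and -0.62 ± 0.29. Between the regions' 30 vs 7 day comparisons, 29 of 38 members had the same sign, against 62.6% of all genes. No member could be called in both, since 0 of 15668 genes passed in the ONH with edgeR.

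**Figure D3:**
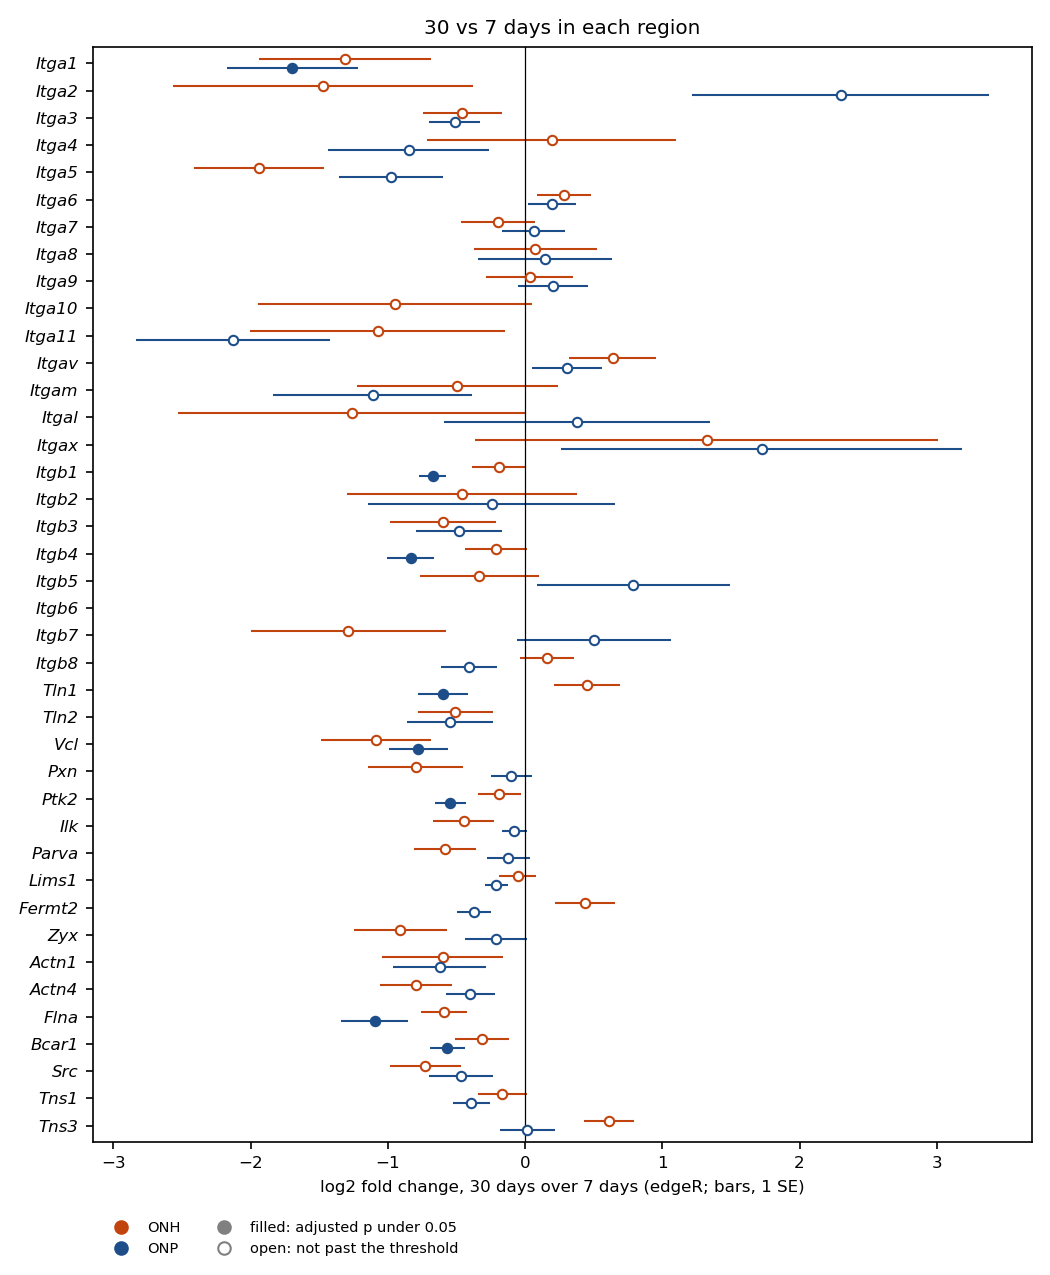
The log2 fold change of 30 over 7 days for each member in the ONH (orange-red) and the ONP (dark blue), with bars of 1 SE from edgeR. Filled points passed an adjusted p of 0.05, and all 8 filled points are those of the ONP, on the lower side. Missing points are members removed by the filter on low counts.

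The comparison of ONH with ONP at 30 days asked what distinguishes astrocytes of the unmyelinated and myelinated nerve after injury. Of 37 members tested, 12 passed (32.4%, against 41.8% of 15133 genes), 7 as higher and 5 as lower in the ONH (against 21.8% and 20% of all genes). The higher ones were mostly linkers between integrins and actin (Tln1, Flna, Vcl, Fermt2 and Tns1), with the subunits Itga3 and Itga8. The lower ones were Actn4, Bcar1, Pxn, Ptk2 and Zyx. Of 10 integrin activators and actin linkers 7 passed, 5 higher and 2 lower, and of 4 signalling proteins 3 passed, all lower. No beta subunit passed. The median log2FC was -0.21 over the members and -0.01 over all genes.

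Flna stood at 85.0 to 150 CPM (median 128) in the ONH and at 40.9 to 68.1 CPM (median 60.5) in the ONP at 30 days. The groups did not overlap, and log2FC was 1.15 ± 0.14 (n = 7 and 7; edgeR adjusted p = 2.22e-05). Tln1 stood at 105 to 235 CPM (median 156) in the ONH against 46.5 to 107 CPM (median 77.1) in the ONP. The ranges touched at a single pair of libraries, and log2FC was 1.11 ± 0.19 (edgeR adjusted p = 0.000343). Vcl stood at 15.5 to 66.7 CPM (median 24.5) against 9.51 to 20.7 CPM (median 14.9), with log2FC of 0.92 ± 0.31 (edgeR adjusted p = 0.0247). ONH replicate 3 gave the 66.7 CPM, more than the 31.1 CPM of the next library, and the adjusted p of Vcl was 0.0515 without ONP replicate 5. Fermt2, which helps talin to activate integrins, stood at 104 to 189 CPM (median 127) against 80.9 to 119 CPM (median 92.6), with log2FC of 0.52 ± 0.15 (edgeR adjusted p = 0.0103). Tns1, a tensin of fibrillar adhesions, stood at 76.0 to 124 CPM (median 94.1) against 50.4 to 79.7 CPM (median 67.0), with log2FC of 0.61 ± 0.14 (edgeR adjusted p = 0.00252).

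Among the members called, Actn4 had the lowest log2FC. It stood in the ONH at 58.0 to 133 CPM (median 94.8) against 149 to 286 CPM (median 207) in the ONP, with no overlap and log2FC of -1.15 ± 0.18 (edgeR adjusted p = 0.000132). Bcar1 stood at 44.1 to 86.8 CPM (median 60.8) against 96.4 to 145 CPM (median 117), also with no overlap and log2FC of -0.86 ± 0.13 (edgeR adjusted p = 0.000153). Ptk2 stood at 44.1 to 59.4 CPM (median 52.1) against 67.9 to 93.9 CPM (median 73.6), again without overlap and with log2FC of -0.52 ± 0.10 (edgeR adjusted p = 0.000636). Flna, Actn4, Bcar1 and Ptk2 are the 4 members whose groups did not overlap, where 16.5% of all genes did not. Pxn, which encodes the adaptor paxillin, stood at 9.64 to 25.7 CPM (median 19.6) against 25.0 to 37.7 CPM (median 34.8), with log2FC of -0.77 ± 0.19 (edgeR adjusted p = 0.00408). Zyx, a LIM protein of tense actin fibres, stood at 21 to 54.3 CPM (median 33.4) against 45.4 to 110 CPM (median 53.1), with log2FC of -0.71 ± 0.23 (edgeR adjusted p = 0.0208).

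Among the subunits, Itga3 stood at 8.48 to 27.1 CPM (median 19.8) in the ONH against 6.27 to 13.1 CPM (median 10.8) in the ONP, with log2FC of 0.86 ± 0.24 (edgeR adjusted p = 0.00989). Itga8, whose product binds nephronectin and other RGD proteins, stood at 3.46 to 8.79 CPM (median 5.6) against 2.03 to 6.06 CPM (median 3.36). Its log2FC was 0.80 ± 0.27 (edgeR adjusted p = 0.0239), and the call was lost without ONH replicate 6 or 7 (adjusted p = 0.0511 and 0.0517), with limma-voom (0.0563), with no filter (0.0529) and with all 4 groups in 1 fit (0.138). Itgb1 had log2FC of 0.34 ± 0.14 (edgeR adjusted p = 0.0594) and passed without ONH replicate 6 (adjusted p = 0.0124). Ilk (log2FC -0.28, edgeR adjusted p = 0.124) passed when ONH replicate 3 was left out (0.0234), and Itgb2 (-1.15, edgeR adjusted p = 0.322) when ONH replicate 7 was (0.0395). Leaving out single libraries also added Itga9 (without ONH replicate 1), Itga2 and Itga7 (ONH 2), Tns3 (ONH 6 or ONP 4), Itga4 (ONH 7), Itgav (ONP 2), Itga7 (ONP 5) and Itgb3 (ONP 6), with 12 to 14 members called in each case.

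The regions also differed in markers of other cells at 30 days. Of 9 oligodendrocyte markers 7 were lower in the ONH, of 10 astrocyte markers 4 were lower and 1 was higher, and of 8 pigment cell markers 7 and of 6 photoreceptor markers 6 were higher there. The pigment cell sum was 278 to 852 CPM in the ONH and 82.3 to 123 CPM in the ONP. Of 8 mural cell markers tested, 3 were higher and 1 was lower, with sums of 242 to 752 CPM in the ONH and 131 to 262 CPM in the ONP. The part of these cells in the result was not tested. Without the 3 libraries high in microglial markers, 9 of 37 members passed, against 35.4% of 15378 genes. Itga8 (edgeR adjusted p = 0.125), Vcl (0.0607) and Zyx (0.139) were no longer among them.

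At 7 days, 6 of 39 members passed between ONH and ONP (15.4%, against 13.2% of 14752 genes), 3 in each direction (against 6.34% higher and 6.81% lower). Itga3 stood at 32.5, 23.6, 20.3 and 25.4 CPM in the ONH and at 15.8, 13.1, 14.7 and 14.5 CPM in the ONP, with log2FC of 0.83 ± 0.21 (n = 4 and 4; edgeR adjusted p = 0.0283). Vcl stood at 109, 56.4, 31.4 and 48.8 CPM against 32.3, 23.2, 21.2 and 27.8 CPM, with log2FC of 1.26 ± 0.34 (edgeR adjusted p = 0.0339). Parva, the parvin of the ILK complex, stood at 206, 185, 106 and 237 CPM against 98.0, 132, 104 and 87.5 CPM, with log2FC of 0.81 ± 0.24 (edgeR adjusted p = 0.0459). These members were higher in the ONH, and in Vcl and Parva ONH library 5 fell inside the ONP range.

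Bcar1 was lower in the ONH at 7 days, at 80.9, 91.1, 49.4 and 95.1 CPM against 153, 154, 159 and 214 CPM, with log2FC of -1.08 ± 0.21 (edgeR adjusted p = 0.00752). Ptk2 stood at 46.2, 57.3, 74.1 and 61.0 CPM against 90.2, 124, 106 and 120 CPM, with log2FC of -0.85 ± 0.19 (edgeR adjusted p = 0.0158). Tns3, a tensin that binds beta integrin tails, stood at 18.7, 24.3, 13.7 and 18.4 CPM against 24.4, 34.8, 42.4 and 42.6 CPM, with log2FC of -0.92 ± 0.24 (edgeR adjusted p = 0.0334). The groups of each of these were separate. In all, 7 members did not overlap between the regions at 7 days (Itga3, Itgam, Itgb4, Itgb8, Ptk2, Bcar1 and Tns3), against 21.7% of all genes.

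With 4 libraries a group, these calls depended on single libraries. Bcar1 passed with each library left out. Ptk2 was lost without ONP library 2 (adjusted p = 0.0583) or 6 (0.0545). Itga3 was lost without ONH library 1 (0.0652) or without any ONP library (0.0615 to 0.091), and Vcl without ONH libraries 1 or 3 (0.0595 and 0.0553) or any ONP library (0.0569 to 0.105). Parva was lost without ONH libraries 1, 3 or 6 or any ONP library (0.0584 to 0.142), and Tns3 without ONH libraries 1 or 5 or ONP libraries 2, 5 or 6 (0.0519 to 0.107), all by edgeR. Other settings lost Vcl and Parva with limma on the deposited log2 values (adjusted p = 0.0636 and 0.0898), Tns3 with limma-voom (0.0705) and Itga3 in edgeR with no filter (0.0693). A further 3 members passed on leaving out a library: Flna without ONP library 1 (log2FC 1.07, edgeR adjusted p = 0.0139), Fermt2 without ONH library 5 (-0.55, edgeR adjusted p = 0.0174) and Itgam without ONH library 6 (-2.17, edgeR adjusted p = 0.0271). All 9 oligodendrocyte markers were lower and 7 of 8 pigment cell markers were higher in the ONH at 7 days, and their part in the result was not tested.

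The 30 day and 7 day comparisons of the regions share no library. Itga3, Vcl, Ptk2 and Bcar1 were called in both and in the same direction, which is 4 of the 12 members called at 30 days and 4 of the 6 called at 7 days. Over all genes, 41.8% passed at 30 days and 13.2% at 7 days. The share of all genes called at both days was not counted, so this overlap is not shown to be particular to the members. Of 37 members tested at both times, 25 had the same sign, against 76.0% of all genes. Fermt2 was higher in the ONH at 30 days, but its log2FC at 7 days was -0.26 ± 0.21 (edgeR adjusted p = 0.448). Tln1, also higher in the ONH at 30 days, had log2FC of 0.09 at 7 days (edgeR adjusted p = 0.826). For Zyx and Pxn, lower in the ONH at 30 days, the values at 7 days were 0.02 ± 0.37 and -0.05 ± 0.38. Whether these differed between the days is the interaction given above, which called none of them with all libraries. Without ONH library 5 of 7 days, Tln1 and Fermt2 passed it (edgeR adjusted p = 0.036 and 0.0245).

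**Figure D4:**
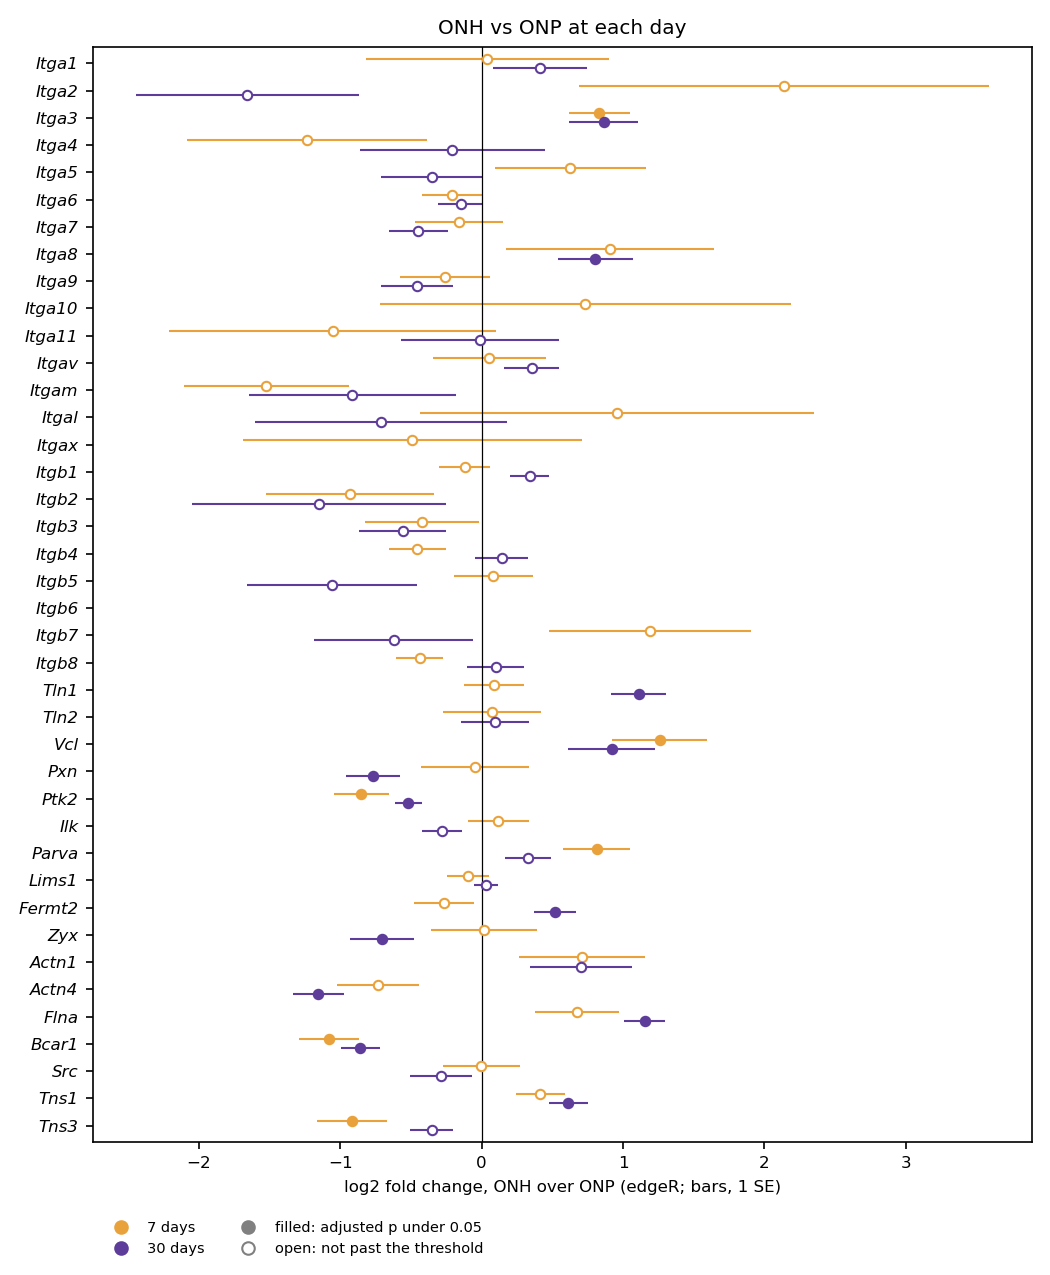
The log2 fold change of ONH over ONP for each member at 7 days (orange) and at 30 days (purple), with bars of 1 SE from edgeR. Filled points passed an adjusted p of 0.05, with Itga3, Vcl, Ptk2 and Bcar1 filled at both times on the same side of 0.

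The leukocyte integrins were among the members that varied most between libraries, and none passed by edgeR with all libraries in the unblocked fits. They are Itgam, Itgal and Itgax, alpha subunits of myeloid and lymphoid cells, their beta chain Itgb2, and Itgb7, another beta chain of leukocytes. Itgb2 stood at 178 CPM in ONP replicate 7, 98.2 CPM in ONP replicate 5 and 86.8 CPM in ONH replicate 7 at 30 days, the 3 libraries with the highest microglial sums, and at 3.65 to 77.3 CPM in the other 19. Itgax, at 31.0, 5.25 and 16.9 CPM in the same libraries, was at most 4.24 CPM elsewhere. Itgam reached 56.4, 60.6 and 31.7 CPM in them, but stood at 63.1 CPM in ONP library 6 of 7 days, which had the fourth highest microglial sum (3274 CPM). Itgal was highest at 7.28 CPM in ONH library 6 of 7 days, and Itgb7 at 6.30 CPM in the same library. Itgb5, which microglia also use, stood at 286, 327 and 132 CPM in the 3 libraries, while ONP replicate 4 of 30 days had 150 CPM and the others 22.6 to 106 CPM.

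At 7 days Itgam stood at 20, 2.83, 7.55 and 33.3 CPM in the ONH and at 35.3, 49.4, 36.5 and 63.1 CPM in the ONP, without overlap and with log2FC of -1.52 ± 0.59 (edgeR adjusted p = 0.115; DESeq2 adjusted p = 0.0448). The microglial sum was 276 to 2499 CPM in those ONH libraries and 1963 to 3274 CPM in the ONP libraries. At 30 days the Itgam log2FC of ONH over ONP was -0.91 ± 0.73 with all libraries and 0.10 without the 3 libraries high in microglial markers. Itgam is an integrin of the cells whose markers chose those libraries, so this change of sign is not independent of that choice. In the ONP, the 30 vs 7 day log2FC of Itgb2 was -0.24 ± 0.90 with all libraries (edgeR adjusted p = 0.879) and -2.26 without the 3 (edgeR adjusted p = 0.00743), which were left out for markers of the same cells.

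**Figure D5:**
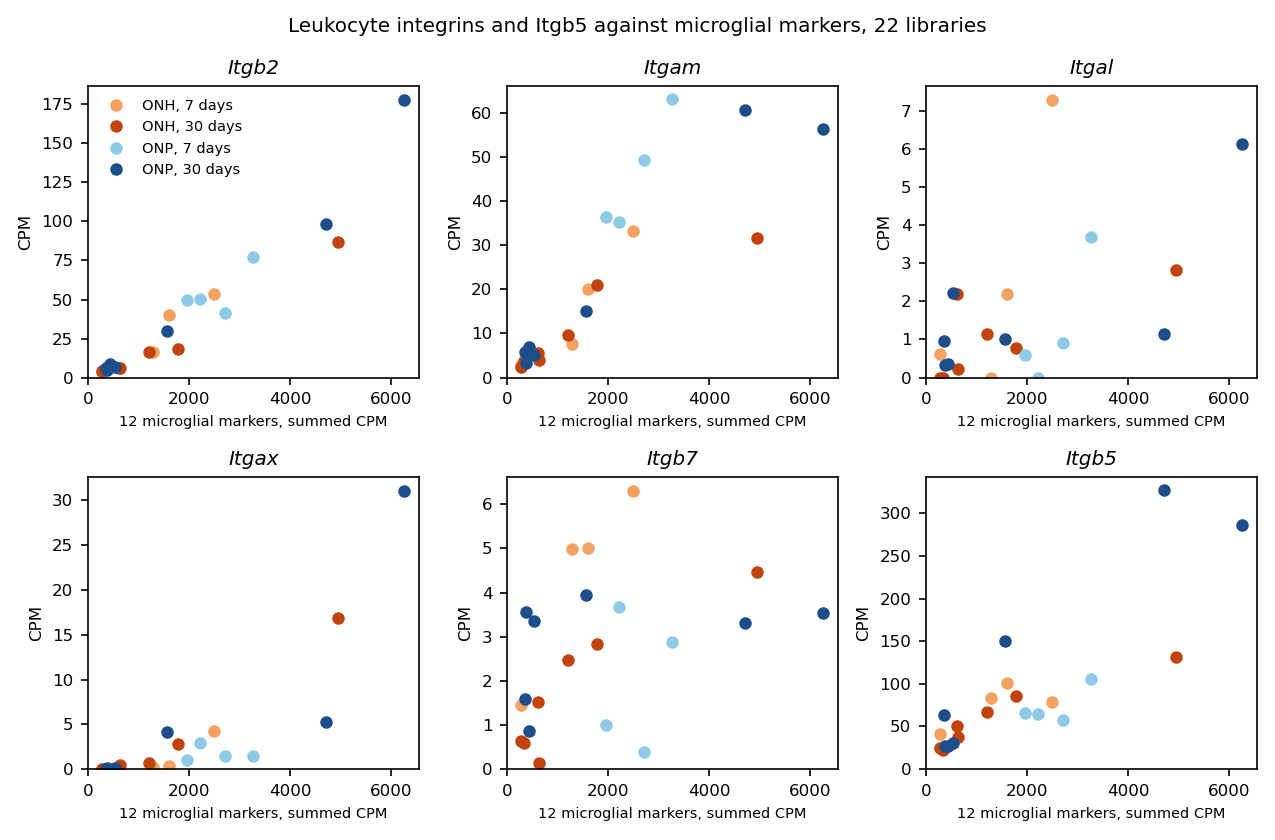
CPM of 5 leukocyte integrin subunits and of Itgb5 in each of the 22 libraries against the summed CPM of 12 microglial or macrophage markers. Both axes are linear and colours give region and day. The 3 libraries at 4707 to 6248 CPM on the x axis hold the highest values of Itgb2 (86.8 to 178 CPM).

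Other genes of the pathway were counted from lists of other integrins, other adhesion proteins and integrin ligands. In the ONP at 30 vs 7 days, 12 of 63 other adhesion proteins passed, 10 as lower and 2 as higher (against 17% of all genes), and 6 of 40 ligands passed, all lower. The largest changes were those of Lamb3, a laminin chain (log2FC -2.69, edgeR adjusted p = 0.0120), Itgad, a leukocyte integrin subunit (-2.27, edgeR adjusted p = 0.00326), Ctgf, a matricellular target of tension signalling (-1.89, edgeR adjusted p = 0.0288), and Sdc4, a proteoglycan co-receptor of integrins, which rose (1.46, edgeR adjusted p = 0.00241). Lamb3 was low, at 0.767 to 1.41 CPM at 7 days and at 0 to 0.325 CPM, near the floor, at 30 days. In the ONH at 30 vs 7 days none of 62 adhesion proteins and 39 ligands passed by edgeR, with 9 and 17 at an unadjusted p under 0.05 (13.9% of all genes).

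Between the regions at 30 days, 22 of 39 ligands passed, 16 as higher and 6 as lower in the ONH, and 21 of 61 other adhesion proteins, 13 and 8 (against 41.8% of all genes). The matrix proteins Tnc (log2FC 3.08, edgeR adjusted p = 5.89e-05), Thbs1 (2.80, edgeR adjusted p = 0.000433), Col1a2 (2.44, edgeR adjusted p = 2.00e-05) and Lama5 (2.13, edgeR adjusted p = 9.52e-05) were the most changed, all higher in the ONH. Tnc, the ligand tenascin-C, had 4.16 to 24.1 CPM in the ONH and 0.446 to 2.18 CPM in the ONP. At 7 days, 8 of 39 ligands (5 higher, 3 lower) and 10 of 62 adhesion proteins (7 higher, 3 lower) passed (against 13.2% of all genes), led by Lamb3. It was listed at 0 in all 4 ONH libraries and stood at 0.767 to 1.41 CPM in the ONP. Thbs1 (4.41, edgeR adjusted p = 0.0166) and Tnc (3.45, edgeR adjusted p = 0.0145) were again higher in the ONH, and Tnr, the tenascin of myelinated tracts, was lower (-2.66, edgeR adjusted p = 0.00027). Of these lists, Lamb3 alone passed the interaction by edgeR (adjusted p = 0.0282), with 0 counts in 1 of the 4 groups and so no fold given.

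Counts of some members may include reads of overlapping genes, since the library kit does not keep strand. Exons of genes on the other strand overlap 2461 of the 2744 exon bases of Ilk (Rrp8 and Taf10) and 2090 of 8191 of Vcl (Ap3m1). Exons of other genes on the same strand overlap 3450 of the 5024 exon bases of Itgam, 1739 of 5186 of Itga10 and 685 of 18599 of Itga1, and these counts and per-length levels are uncertain to that extent.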

How the data were processed

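Ribosome-associated mRNA was measured in 22 libraries. The authors aligned reads of 150 bases to mm10 with STAR 2.6.1d, quantified with Salmon 0.14.2 on an Ensembl annotation, and deposited estimated counts per gene, which held whole numbers (0 fractional values), and log2 values from a variance-stabilizing transformation. Libraries at 7 days were matched to their group only.

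Counts were tested per comparison in edgeR 4.0.16 (R 4.3.3) with filterByExpr, TMM scaling and the quasi-likelihood test, fitted over all genes, with Benjamini-Hochberg adjustment and a threshold of 0.05. The alternatives were DESeq2 1.42.0, limma 3.58.1 (voom with quality weights, and the deposited log2 values), other scalings and filters, all 4 groups in 1 fit, a replicate block, and each library left out. Leaving out 3 libraries high in microglial markers, and a block by header number at 7 days, were chosen after seeing the data. CPM used TMM over all 22 libraries, and lengths came from union exons (GRCm38). Total counts of 16292489 to 33307092 set the counting precision, with 3 counts as the floor. The scripts were tested on simulated data.

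The members and the gene lists were chosen with earlier results of these data known. The text could name all 40 members, the up to 4 genes per comparison with the largest absolute log2 fold change among called genes of the other integrin, adhesion protein and ligand lists, and marker genes beside a member. Each ONH and ONP pool came from the same mice per the methods, but no source ties the number to the mice. For that reason libraries were tested unpaired, with a block by number as an alternative. Same-numbered libraries of 30 days correlated at 0.0728 to 0.475 over 16690 genes, which does not settle whether they are pairs.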

Additional observations from a re-analysis of the deposited data

Results flagged for a closer look

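In 18 of 159 groups of 4 or 7 libraries, 1 library stood apart from the others by Dixon's criterion at the 95% level, which chance alone gives in about 1 of 20 groups. All values are CPM.

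In ONH libraries of 30 days, replicate 2 was highest for Itga2 (7.12, next 1.81) and Itga7 (13.2, next 8.43). Replicate 3 was highest for Vcl (66.7, next 31.1) and Itgb6 (0.653, next 0.262). Replicate 7 was highest for Itga4 (3.93, next 0.653), Itgax (16.9, next 2.77) and Itgb2 (86.8, next 18.0), and it also had the highest microglial marker sum of its group.

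In ONP libraries of 30 days, replicate 5 was highest for Itgb4 (163, next 97.1), replicate 6 for Itga8 (6.06, next 3.58), and replicate 7 for Itgal (6.13, next 2.21) and Itgax (31.0, next 5.25). Replicate 7 had the highest microglial marker sum of all libraries.

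At 7 days, ONH library 6 was highest for Itgax (4.24, next 0.382) and Lims1 (127, next 104) and lowest for Src (14.9, next 25.9). ONH library 5 was highest for Fermt2 (147, next 87.4). ONP library 6 was highest for Itga10 (2.88, next 0.192), Fermt2 (137, next 122) and Bcar1 (214, next 159).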

How the results depend on the processing

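Among counts of members called, the ONH comparison of 30 with 7 days gave 0 with edgeR, 3 with DESeq2, 1 with all 4 groups in 1 fit and 0 to 3 with 1 library left out. The ONP comparison gave 8, with 9 by DESeq2, 11 by limma-voom and 6 by limma on the deposited log2 values. It gave 4 with all 4 groups in 1 fit, 13 without the 3 libraries high in microglial markers, and 5 to 9 with 1 library left out. The regions at 7 days gave 6, and 1 to 6 with 1 library left out, while at 30 days the count stayed between 9 and 14. The interaction gave 0, and 0 to 2 with 1 library left out. The cause was not tested. Signs turned for Itgam between regions at 30 days (0.10 without the 3 libraries), in the ONP for Itgax (-1.84 with limma-voom, -0.0378 with limma on the deposited log2 values, -0.90 without the 3 libraries, -0.0885 to 2.14 with 1 library left out) and Itgb5 (-0.17 with limma-voom, -0.30 without the 3 libraries), for Tln1 between regions at 7 days (-0.0366 with limma-voom, and -0.17 to 0.22 with 1 library left out), for Itga2 in the interaction (-0.0067 with limma-voom and -0.026 with its replicate block) and for Vcl in the interaction (-0.0862 to 0.69 with 1 library left out). Counts over all genes moved by more than 1.5 times in the ONH (0 with edgeR, 448 with DESeq2, 292 with all 4 groups, 167 without library 5 of 7 days), in the ONP (2638, and 1189 with all 4 groups or 1439 without library 6 of 7 days), between regions at 7 days (1940, 3181 with DESeq2, 3785 with all 4 groups, 1102 without ONP library 6) and in the interaction (91, 409 with DESeq2, 55 with limma-voom, 50 with no filter, 22 to 318 with 1 library left out). Scaling by library size alone moved the share of calls that were higher from 48.2% to 62.4% at 7 days and from 27.5% to 53.6% in the interaction, with shifts of the median log2 change of 0.11 and 0.15. With a replicate block at 30 days, 14 members and 6717 genes were called, against 12 and 6322 unpaired, the added members being Ilk (log2FC -0.31, edgeR adjusted p = 0.0496) and Itgb2 (-0.76, edgeR adjusted p = 0.0407). Same-numbered libraries of 30 days had r over 0.1 in 5 of 7 cases, and 3 of 7 ONH libraries matched their own number best. At 7 days, where header numbers 1, 5 and 6 stand in both regions (r of 0.0207, 0.0127 and 0.146), a replicate block by header number called 1 member (Bcar1) and 860 genes. No paired analysis was possible because 30 and 7 day libraries came from different mice, for the comparisons between days.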
